A study of Mus musculus with 6 samples.

Results

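Transcripts of 10 genes for disulfide bond formation in the endoplasmic reticulum (ER) were followed in mouse testes that lacked or kept SEL1L in male germ cells. The genes were chosen by name: 8 of the protein disulfide isomerase (PDI) family (Pdilt, P4hb, Pdia2, Pdia3, Pdia4, Pdia5, Pdia6 and the membrane-anchored Tmx1) and the oxidases Ero1l and Ero1lb, which RefSeq lists as Ero1a and Ero1b. All 10 were found by their GENCODE symbol among 55536 genes with counts. Of these, 9 were among the 21465 genes with enough reads to be tested, and Pdia2 was not.

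RNA sequencing was done on whole testes of 7-week-old mice, 3 KOStra8 and 3 HETStra8. KOStra8 mice carried 1 floxed and 1 deleted Sel1L allele (Sel1L flox/Δ) together with Stra8-Cre, an optimized Cre recombinase driven by the male germ cell promoter Stra8. HETStra8 littermates were heterozygous for Sel1L. The study gives that name to both Sel1L flox/+ mice with Stra8-Cre and Sel1L flox/Δ mice without it, and the sources used here do not say which of these each sequenced mouse was. Every mouse of both groups thus had at least 1 altered Sel1L allele, and no wild-type testis was sequenced. In the study, SEL1L was lost from spermatocytes and spermatids but kept in spermatogonia and Sertoli cells, so the RNA of a KOStra8 testis came from both kinds of cell. The treatment label reads knockout for all 6 libraries, and the groups were taken from the titles and the genotype label.

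PDIs hold cysteine pairs in thioredoxin-like domains and pass disulfide bonds to newly made secretory and membrane proteins, or rearrange wrong ones. ERO1 oxidases reoxidize PDI with molecular oxygen, and reduced PDIs can also open disulfides before a misfolded protein is sent to SEL1L-HRD1, the ER-associated degradation complex. In the testis, PDILT is a germ cell PDI that works with the lectin chaperone calmegin on sperm surface proteins of the ADAM family, and it lacks the usual catalytic cysteine pairs.

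The coding sequences showed how far Pdilt differs from the ubiquitous members at the sites that carry the chemistry. P4hb, the founding member, encodes 509 residues, and Pdilt encodes 588. In a global alignment of the translated sequences 162 of 507 paired positions were identical, or 32.0%. P4hb holds 2 sites of cysteine, glycine, histidine and cysteine. Pdilt holds 0 pairs of cysteines spaced by 2 residues, and the positions aligned to these sites read leucine, lysine, glutamine and serine at the first and serine, glutamate, lysine and cysteine at the second. The 48 coding bases around each aligned site are printed for P4hb, Pdilt and Pdia3, the most abundant member, with the 4 codons of the site in capitals.
P4hb site 1: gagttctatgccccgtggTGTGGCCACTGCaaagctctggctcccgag
Pdilt site 1: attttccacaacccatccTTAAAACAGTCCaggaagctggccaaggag
Pdia3 site 1: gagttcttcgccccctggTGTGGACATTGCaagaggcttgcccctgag
P4hb site 2: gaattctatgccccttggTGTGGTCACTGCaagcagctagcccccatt
Pdilt site 2: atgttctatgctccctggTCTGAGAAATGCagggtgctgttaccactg
Pdia3 site 2: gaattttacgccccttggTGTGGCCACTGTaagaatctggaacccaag

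These bases were read from the GENCODE M21 transcripts on GRCm38. The sites begin at codons 55 and 399 of P4hb, 69 and 414 of Pdilt, and 57 and 406 of Pdia3. The P4hb windows lie on the minus strand at chr11:120571687-120572663 and chr11:120562505-120562661, those of Pdilt on the minus strand at chr7:119515040-119519638 and chr7:119489508-119491655, and those of Pdia3 on the plus strand at chr2:121414189-121422479 and chr2:121434849-121434896. All of these are coding exons. Each window except the second of Pdia3 runs across an exon junction, so its span in the genome also holds an intron that is not in the printed bases.

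The other members kept such cysteine pairs. Pdia4 and Pdia5 have 3 pairs spaced by 2 residues, Pdia2 and Pdia6 have 2, and Tmx1 has 1. The pairs of Pdia4 and Pdia6 are all cysteine-glycine-histidine-cysteine, whereas 1 of the 3 in Pdia5, 1 of the 2 in Pdia2 and 0 in Tmx1 have those residues. Of 22108 genes with coding transcripts, 38, or 0.172%, had this 4-residue stretch in at least 1 of those transcripts. Ero1l and Ero1lb, of 464 and 467 residues, each have 2 overlapping pairs that share a cysteine, and 284 of 454 aligned positions were identical between them, or 62.6%.

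The level of each member was compared per length, as CPM (read counts scaled to 1000000 per library, after scaling of library size by the TMM method) divided by the length of the merged exons in kb. Pdia3, which works with calnexin and calreticulin on glycoproteins, was highest, with a mean over the 6 testes of 115 ± 4.37 CPM per kb (SD, n = 6). Pdilt followed at 78.8 ± 8.82 CPM per kb (SD, n = 6). Pdilt thus stood above P4hb and above every other member but Pdia3. Per kb of merged exons its lowest testis, at 64.7, was above the highest value of Pdia6, at 46.7.

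Below these came Pdia6, a PDI that binds BiP, at 41.4 ± 2.80 CPM per kb (SD, n = 6), and Ero1lb, the ERO1 paralog known from secretory tissues such as the pancreas, at 31.5 ± 1.04. P4hb was at 27.7 ± 3.51 CPM per kb (SD, n = 6). Ero1lb and P4hb were the only neighbours in this order whose ranges overlapped, since P4hb reached 34.6 in HETStra8 mouse 1. Pdia4, another BiP partner, was at 17.3 ± 1.38, Tmx1 at 10.96 ± 0.870, Pdia5 at 6.92 ± 0.712 and Ero1l, the widely expressed ERO1 that responds to hypoxia, at 3.03 ± 0.186 CPM per kb (SD, n = 6 for each). With the length of the longest transcript in place of the merged exons the order of the means was the same, but Pdia6 rose to 71.3 and Ero1lb to 49.5 CPM per kb. Pdilt was then at 83.7, and its range over the testes overlapped that of Pdia6, as the ranges of Tmx1 and Pdia5 also did. The separation of Pdilt from Pdia6 thus depended on the length used.

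**Figure D1:**
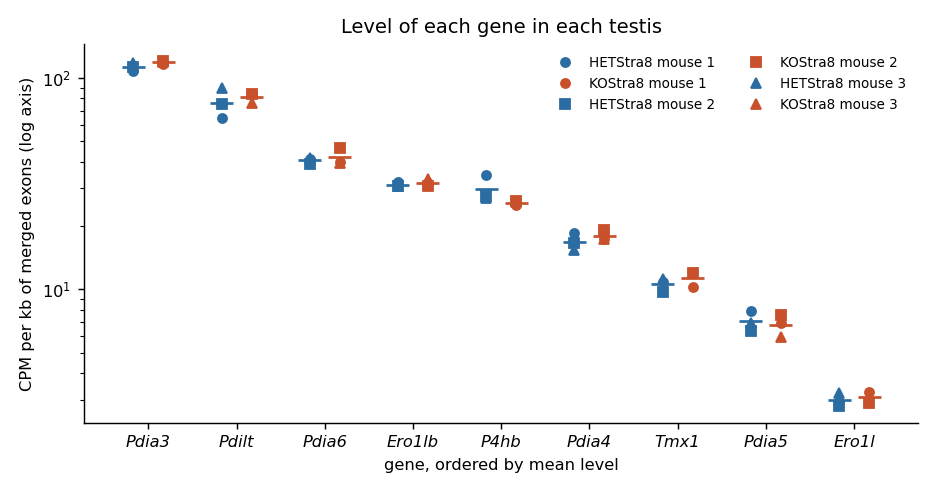
Level of the 9 tested genes in each testis, as CPM per kb of merged exons on a log axis, ordered by the mean over all 6 testes; blue symbols are HETStra8 and orange symbols KOStra8 mice, and horizontal bars are group means (n = 3). On this length Pdilt, between 64.7 and 89.4 CPM per kb, lies apart from its neighbours Pdia3 and Pdia6, and Ero1lb lies above Ero1l in every testis.

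Pdia2, known from the pancreas, had 3 reads in all, 2 in HETStra8 mouse 2 and 1 in KOStra8 mouse 2. It had 0 in the other 4 libraries, which allows a level of up to 0.0822 to 0.0954 CPM in them, the value of 3 counts in each of these libraries. No fold change was therefore taken for it.

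The libraries held between 28875108 and 36526695 counts, so the tested members had between 441 and 13616 counts each per library. Sel1l, the targeted gene, was at 49.3, 47.6 and 42.4 CPM in HETStra8 (mice 1 to 3) and at 24.2, 22.0 and 20.3 CPM in KOStra8 mice 1 to 3, with no overlap (log2 fold change −1.07, SE 0.104, edgeR adjusted p = 0.000610). Without KOStra8 mouse 2 or 3 this adjusted p was 0.0132 or 0.0120, above the 0.01 set as the limit. HETStra8 mice 1 and 3 stood apart from each other: their counts differed with a chi-square of 27.7 per degree of freedom, against 8.73 to 14.3 for the other pairs of mice within a group. Over genes above 10 CPM, the SD of the log2 difference from the other mice of the group was 0.240 for HETStra8 mouse 1 and 0.236 for mouse 3. For the other testes it was 0.1535 to 0.1663. These values do not say which of HETStra8 mice 1 and 3 was unusual. Fold changes fell with the GC content of a gene (Spearman rho −0.46 across 21457 genes, which are not independent replicates). Values with single HETStra8 mice left out, and with offsets for GC content and length, are therefore given where they bear on a result. Germ cell markers were abundant, with summed levels of 12212 to 12408 CPM in HETStra8 and 10826 to 12490 CPM in KOStra8 testes for 6 genes of elongating spermatids, while 5 epididymal genes summed to between 0.138 and 0.477 CPM, with Lcn8 and Spint4 at 0.

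The comparison of KOStra8 with HETStra8 asked whether loss of SEL1L from germ cells went with a change of these transcripts. It was made with edgeR's quasi-likelihood test, and a gene was called at a Benjamini-Hochberg adjusted p below 0.01 and a fold change of at least 2, the cutoffs of the study. The study reported many more genes at these cutoffs than this test called, and its methods do not name its test. The number over all genes depends on the processing, at 14 with DESeq2 and 39 with no filter. Of the 9 tested members 0 were called, as against 0.00932% of all genes (2 of 21465). At an unadjusted p below 0.05 the count was also 0 in edgeR's, DESeq2's and limma-voom's test, while 12.3% of all genes had such a p in edgeR's, 7.13% higher and 5.12% lower in KOStra8. Adjusted p-values from edgeR's test lay between 0.414 and 0.911. The log2 fold changes ran from −0.21 to 0.10 with a median of 0.04, 7 above and 2 below 0. Over all genes tested the median was −0.0094, with 48.5% above 0. The 95% intervals of all 9 members included 0 and lay between −25.1% and 24.5%, so a change of 2-fold was outside each of them. In bulk RNA of a tissue, fewer cells of a type and less RNA per cell cannot be told apart.

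**Figure D2:**
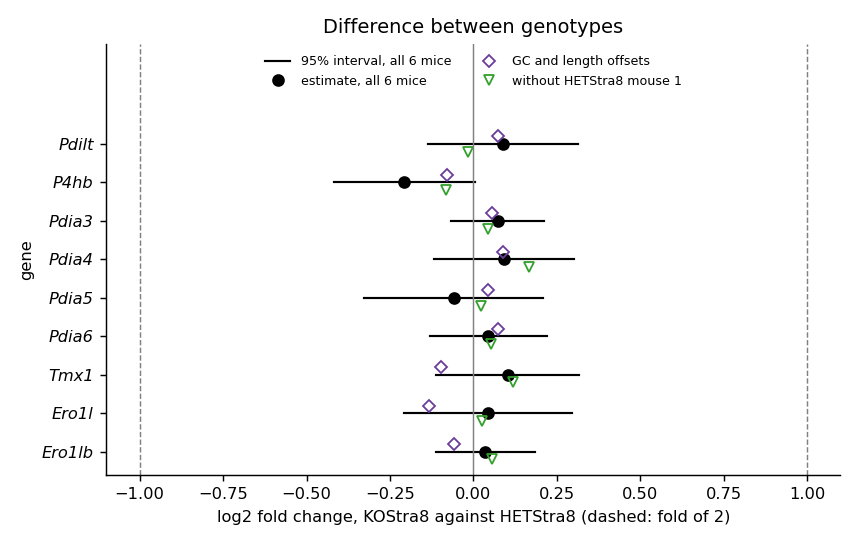
Log2 fold change of each tested member between KOStra8 and HETStra8 testes (n = 3 each), with the estimate and its 95% interval in black, the estimate with offsets for GC content and length as purple diamonds and the estimate without HETStra8 mouse 1 as green triangles; dashed lines mark a fold of 2. All intervals cross 0, and P4hb, at −0.21, moves to −0.08 under either alternative. Without HETStra8 mouse 2 or mouse 3, not shown, P4hb was at −0.26.

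Pdilt (ENSMUSG00000030968, chr7:119486587-119523489, minus strand) was at 148, 171 and 204 CPM in HETStra8 (mice 1 to 3) and at 192, 190 and 173 CPM in KOStra8 mice 1 to 3. The HETStra8 mice spanned a 1.38-fold range and the KOStra8 mice a 1.11-fold range that lay inside it, so the groups overlapped. The means were 174 ± 28.4 and 185 ± 10.6 CPM (SD, n = 3), which gave a difference on the log2 scale of 0.09 (SE 0.104, 95% interval −0.14 to 0.31, edgeR adjusted p = 0.766). This small difference depended on single HETStra8 mice: it was −0.017 without mouse 1, the lowest, and 0.23 without mouse 3, the highest (edgeR adjusted p = 0.973 and 0.123). Of the 2281 exon bases of Pdilt, 305 overlap genes on the opposite strand, Acsm5 and Gm37518. Acsm5 was at no more than 1.04 CPM and Gm37518 had 0 counts in all 6 libraries.

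P4hb (ENSMUSG00000025130, chr11:120560298-120573253, minus strand), the catalytic PDI that is also the beta subunit of collagen prolyl 4-hydroxylase, was at 99.1, 78.7 and 76.9 CPM in HETStra8 mice 1 to 3. In KOStra8 mice 1 to 3 it was at 71.5, 75.1 and 74.1 CPM. It was the only member whose groups did not overlap, 1 of 9 or 11.1%, where 17.8% of all genes had groups without overlap, 9.33% higher and 8.43% lower in KOStra8. HETStra8 mouse 1 was well above the other 5 testes, while HETStra8 mouse 3 and KOStra8 mouse 2 were close to each other. The means were 84.9 ± 12.3 and 73.6 ± 1.86 CPM (SD, n = 3), which gave a difference on the log2 scale of −0.21 (SE 0.0982, 95% interval −0.42 to 0.0035, edgeR unadjusted p = 0.0535, adjusted p = 0.414). Without HETStra8 mouse 2 or mouse 3 the log2 fold change was −0.26 each time (edgeR unadjusted p = 0.0388 and 0.0143, adjusted p = 0.560 and 0.1345). Without HETStra8 mouse 1 the log2 fold change was −0.08 (edgeR adjusted p = 0.840), and with the offsets for GC content and length, with all mice, it was also −0.08 (edgeR adjusted p = 0.876). Both together, which was tried only once the values were known, gave 0.014.

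Markers of other testis cells were measured beside these values. Of the 53 markers tested, 0 were called. At an unadjusted p below 0.05 in edgeR's test 0 were higher and 6, or 11.3%, were lower in KOStra8. Of all genes, 7.13% were higher and 5.12% lower at such a p, so the markers leaned to the lower side more than all genes did. The 6 Leydig cell markers summed to 733, 542 and 487 CPM in HETStra8 (mice 1, 2, 3) and to 527, 472 and 410 CPM in KOStra8 mice 1 to 3, with HETStra8 mouse 1 the highest testis both for this sum and for P4hb. All 6 had lower means in KOStra8, and 1, Star, had an unadjusted p below 0.05. The Sertoli cell markers summed to 173, 164 and 160 CPM in HETStra8 and to 146, 156 and 149 CPM in KOStra8 mice, so these sums did not overlap. Of these markers 7 of 7 had a negative log2 fold change and 2, Rhox5 and Gata4, an unadjusted p below 0.05.

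The 5 macrophage markers had overlapping sums of 31.9 to 38.4 CPM in HETStra8 and 26.9 to 34.5 CPM in KOStra8, with 5 of 5 at a negative log2 fold change and 2, Cd68 and C1qb, at an unadjusted p below 0.05 in edgeR's test. The 4 peritubular myoid markers, all at a negative log2 fold change, had overlapping sums of 99.1 to 136 and 100.4 to 116 CPM and none at such a p. The 4 endothelial markers were split, 2 in each direction, with sums of 16.2 to 24.6 and 17.04 to 24.0 CPM. Groups without overlap, all lower in KOStra8, occurred for 1 of 6 Leydig, 2 of 7 Sertoli and 3 of 5 macrophage markers. No myoid or endothelial marker had such groups. Of all genes, 8.43% had groups without overlap that were lower in KOStra8. The part of these cells in the P4hb difference was not tested.

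Germ cell markers were split in direction. Of the 8 spermatocyte markers 5 had a positive and 3 a negative log2 fold change, from −0.18 for Pou5f2 to 0.97 for Sycp1, with 0 at an unadjusted p below 0.05 in edgeR's test. Their sums, mostly made up of Ldhc, overlapped at 3436 to 3736 CPM in HETStra8 and 3559 to 3722 CPM in KOStra8. Among all genes, 9.33% had groups without overlap that were higher in KOStra8, and of these 8 markers 1 did. Sycp1, a synaptonemal complex protein, was picked after its values were seen, as the marker with the highest fold change of the list and the only one without overlap. It was at 70.9, 120 and 186 CPM in HETStra8 mice 1 to 3 and at 261, 247 and 228 CPM in KOStra8 mice 1 to 3 (edgeR unadjusted p = 0.0615, adjusted p = 0.424). HETStra8 mouse 1 was the lowest testis for it, as for Pdilt, Sycp3, Hormad1 and Spo11. The same mouse was the highest testis for Piwil1, Pou5f2 and Ldhc and for the sum of the 8 markers, and neither for Ccna1. The GC content of Sycp1 is 34.6%, and the part of GC content in its difference was not tested.

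The 7 spermatogonial markers, 4 higher and 3 lower on average, summed to 86.9 to 94.1 CPM in HETStra8 and 82.3 to 91.5 CPM in KOStra8. The 6 round spermatid markers summed to 2012 to 2055 and 1846 to 2002 CPM, so these sums did not overlap, with 4 of 6 lower on average. Of them 2, Tssk1 and Spata18, had groups without overlap, lower in KOStra8. Of the 6 elongating spermatid markers 5 were lower on average, with overlapping sums, and 2, Odf1 and Gapdhs, had groups without overlap, lower in KOStra8. Of all genes, 8.43% had groups without overlap that were lower in KOStra8. Gapdhs, a sperm glycolytic enzyme, had the smallest p of all markers (log2 fold change −0.20, edgeR unadjusted p = 0.00660, adjusted p = 0.245). The part of germ cell makeup in the Pdilt values was not tested.

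**Figure D3:**
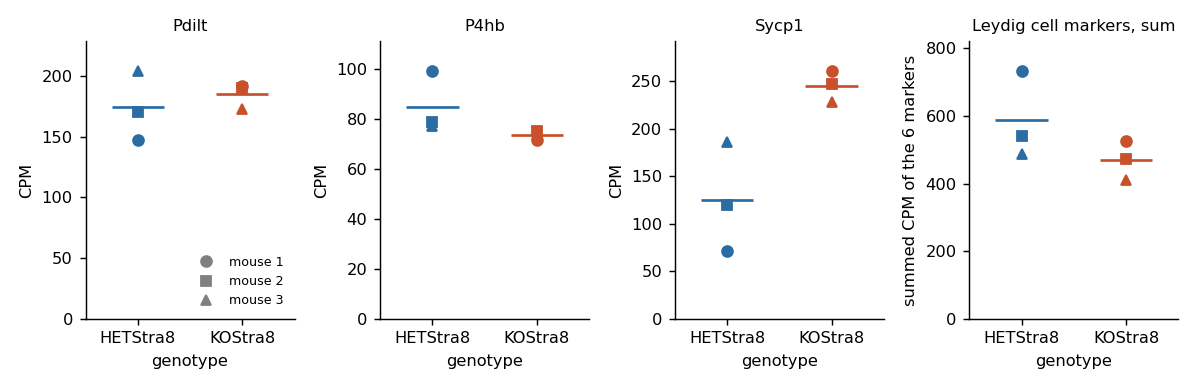
Values of the 6 testes for Pdilt, P4hb, the spermatocyte gene Sycp1 and the summed 6 Leydig cell markers, in CPM on axes that start at 0; symbols give the mouse number within its genotype and bars the group means (n = 3). HETStra8 mouse 1 is lowest for Pdilt and Sycp1 and highest for P4hb and the Leydig cell sum. It was also the highest testis for the spermatocyte markers Piwil1, Pou5f2 and Ldhc, which are not shown.

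The ratio of Pdilt to P4hb within a library does not depend on library size. In CPM it was 1.49, 2.17 and 2.65 in HETStra8 (mice 1, 2, 3) against 2.69, 2.54 and 2.33 in KOStra8 mice 1 to 3. The KOStra8 testes lay close together, and HETStra8 mouse 3 lay among them, while HETStra8 mice 1 and 2 were lower. On the log2 scale the means were 1.03 ± 0.423 and 1.33 ± 0.102 (SD, n = 3), a difference of 0.30 (two-sided exact permutation test, p = 0.3, adjusted p = 0.6 over 2 ratios). The smallest p that 3 mice against 3 allow is 0.1. Without HETStra8 mouse 1 the difference was 0.07, and without mouse 3 it was 0.49. With the offsets for GC content and length it was 0.16 (two-sided exact permutation test, p = 0.7).

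Genes whose log2 CPM followed that of Pdilt or P4hb most closely over the 6 libraries were looked up among 10012 genes above 10 CPM, as a description only, since all points share their libraries and the composition of each testis. For Pdilt these were Apobec4 (Pearson r = 0.998), Prr3 (0.990) and Fam71b (0.984), and 148 genes in all were above 0.9. For P4hb they were Sdr39u1 (r = 0.997), Fbp1 (0.996) and Arhgdia (0.994), with 579 genes above 0.9. Arhgdia, at 92.3, 73.3 and 72.8 CPM in HETStra8 (mice 1, 2, 3) against 65.1, 69.2 and 67.3 CPM in KOStra8 mice 1 to 3, lies near P4hb on chromosome 11, with 4850 bases between the genes. With 6 libraries such high values are common, as the numbers of genes above 0.9 show.

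Pdia3 (ENSMUSG00000027248, chr2:121413775-121438687, plus strand) was the most precisely measured member, at 340, 353 and 367 CPM in HETStra8 (mice 1, 2, 3) against 366, 376 and 373 CPM in KOStra8 mice 1 to 3. HETStra8 mouse 3 lay within the KOStra8 values and the other HETStra8 mice below them. The log2 fold change was 0.07 (SE 0.0653, 95% interval −4.53% to 15.9%, edgeR adjusted p = 0.683). It shares 18 of 3139 exon bases with Catsper2 on the opposite strand, itself at 289 to 341 CPM. The strand setting of the authors' counting is not given in the sources used here, and reads in those bases could not be told apart in an unstranded count.

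Pdia6 and Pdia4 are the members best known as targets of the unfolded protein response. Pdia6 (ENSMUSG00000020571, chr12:17266545-17284770, plus strand) was at 155, 146 and 157 CPM in HETStra8 (mice 1, 2, 3) against 150, 175 and 148 CPM in KOStra8 mice 1 to 3. KOStra8 mouse 2 was the high one, and without it the log2 fold change of 0.04 (SE 0.0814, edgeR adjusted p = 0.860) became −0.03. Pdia4 (ENSMUSG00000025823, chr6:47796141-47813430, minus strand) was at 44.4, 39.8 and 36.6 CPM in HETStra8 (mice 1, 2, 3) against 41.3, 45.9 and 41.6 CPM in KOStra8 mice 1 to 3. The highest testis was KOStra8 mouse 2 here too, HETStra8 mouse 1 was second, and the groups overlapped (log2 fold change 0.09, SE 0.0984, edgeR adjusted p = 0.739). The estimate was 0.17 without HETStra8 mouse 1 and 0.04 without mouse 3.

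Pdia5 (ENSMUSG00000022844, chr16:35397312-35490873, minus strand), a PDI known to act on the stress sensor ATF6, was at 21.8, 17.7 and 19.3 CPM in HETStra8 (mice 1, 2, 3) against 19.1, 20.8 and 16.4 CPM in KOStra8 mice 1 to 3. The groups overlapped widely, and the log2 fold change of −0.06 (SE 0.125, edgeR adjusted p = 0.882) had the largest error of the members. Tmx1 (ENSMUSG00000021072, chr12:70453095-70468040, plus strand), a transmembrane PDI that acts on membrane-bound clients, was at 35.7, 32.1 and 36.9 CPM in HETStra8 mice 1 to 3. In KOStra8 mice 1 to 3 it was at 33.9, 39.1 and 39.3 CPM, so that KOStra8 mice 2 and 3 were above all HETStra8 testes and mouse 1 among them. Its log2 fold change was 0.10 (SE 0.0998, edgeR adjusted p = 0.712) and −0.10 with the offsets for GC content and length.

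The levels of both oxidases overlapped between the genotypes. Ero1lb (ENSMUSG00000057069, chr13:12565874-12611396, plus strand) was at 213, 204 and 204 CPM in HETStra8 (mice 1, 2, 3) against 212, 204 and 221 CPM in KOStra8 mice 1 to 3, a log2 fold change of 0.04 (SE 0.0689, edgeR adjusted p = 0.867). Ero1l (ENSMUSG00000021831, chr14:45283087-45318771, minus strand) was at 15.4, 14.9 and 17.01 CPM in HETStra8 (mice 1, 2, 3) against 17.2, 15.2 and 16.2 CPM in KOStra8 mice 1 to 3, a log2 fold change of 0.04 (SE 0.117, edgeR adjusted p = 0.911). The values of both genotypes were interleaved for each oxidase. With the offsets for GC content and length the estimates were −0.06 for Ero1lb and −0.13 for Ero1l.

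Ero1lb was the prevailing oxidase transcript in every testis. The ratio of Ero1lb to Ero1l in CPM was 13.8, 13.7 and 12.02 in HETStra8 (mice 1, 2, 3) against 12.3, 13.4 and 13.6 in KOStra8 mice 1 to 3. On the log2 scale the means were 3.72 ± 0.114 and 3.71 ± 0.0814 (SD, n = 3), a difference of −0.0077 (two-sided exact permutation test, p = 0.8, adjusted p = 0.8 over 2 ratios). Per kb of merged exons the means over all testes were 31.5 against 3.03 CPM. Of the 50-base stretches of the Ero1lb transcripts 9.26% also occur in other genes, mostly Gm18562 and Churc1, against 1.37% for Ero1l and 0% for each of the 8 PDIs, so the level of Ero1lb is less certain than the others.

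The promoters of the members were searched for elements through which ER stress acts on transcription, in the RefSeq windows on GRCm38.p6 from 250 bases before to 50 after the start of each gene. The ER stress response element (CCAAT, any 9 bases, then CCACG), searched on both strands, was found in the windows of Pdia6 and Ero1lb and in 39 of 32851 RefSeq promoters, or 0.119%. Counted from the start of the gene, it begins at position −98 in Pdia6 and at −201 in Ero1lb, where it lies on the opposite strand. These windows, with 20 bases on each side and the element in capitals, lie at chr12:17266471-17266529 and chr13:12565662-12565720 on the plus strand.
Pdia6: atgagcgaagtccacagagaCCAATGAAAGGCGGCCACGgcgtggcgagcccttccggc
Ero1lb: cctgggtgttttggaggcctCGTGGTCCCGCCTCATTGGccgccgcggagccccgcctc

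The core TGACGTGG of the unfolded protein response element (0.676% of all promoters) and the cyclic AMP response element TGACGTCA (1.79%) were in none of the 10 windows, which says only that these letters are not there. The 2 genes with the ER stress response element had log2 fold changes of 0.04 each between the genotypes.

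Other genes of oxidative folding, and partners and clients of the PDIs, were examined as 5 lists of 34 genes, of which 31 were tested. Erp27, Agr2 and Vkorc1 had too few reads. Of the 31, 0 were called and 2 had an unadjusted p below 0.05 in edgeR's test, 6.45%, against 12.3% of all genes. The median log2 fold change was −0.020, with 12 of 31 above 0. Groups did not overlap for 7 of the 31, 22.6%, against 17.8% of all genes: KOStra8 lay above HETStra8 for Erp44, Tmx3, Canx and Adam3 and below it for Qsox1, P4ha1 and Adam1a.

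Among 13 other thioredoxin-fold ER proteins the median log2 fold change was −0.0068, with 5 above 0. Tmx3, a transmembrane PDI, had the highest, at 12.6, 10.04 and 16.1 CPM in HETStra8 (mice 1, 2, 3) against 17.6, 16.9 and 16.4 CPM in KOStra8 mice 1 to 3. All KOStra8 testes were above the HETStra8 ones, HETStra8 mouse 3 only just below (log2 fold change 0.39, SE 0.155, edgeR unadjusted p = 0.0234, adjusted p = 0.340). It was 0.24 without HETStra8 mouse 2 and 0.59 without mouse 3 (edgeR adjusted p = 0.643 and 0.0240), and −0.015 with the offsets for GC content and length. Txndc5, a PDI of endothelial and stromal cells among others, was at 40.8, 37.3 and 27.4 CPM in HETStra8 (mice 1, 2, 3) against 30.6, 27.4 and 25.3 CPM in KOStra8 mice 1 to 3, with HETStra8 mouse 3 among the KOStra8 values (log2 fold change −0.34, SE 0.137, edgeR unadjusted p = 0.0276, adjusted p = 0.354). It was −0.22 without HETStra8 mouse 1 and −0.48 without mouse 3 (edgeR adjusted p = 0.689 and 0.0164), and −0.23 with the offsets (edgeR unadjusted p = 0.0774). The lowest of the list was Selenom, a selenoprotein at 2.16 to 4.74 CPM, with a log2 fold change of −0.44 (edgeR adjusted p = 0.547).

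The 6 other oxidants and reductants tested had a median log2 change of −0.13, with 1 above 0. They ran from −0.46 for Gpx7, a peroxidase that oxidizes PDI and was at 0.330 to 1.16 CPM, to 0.03 for Vkorc1l1, a paralog of the vitamin K epoxide reductase. Qsox1, a sulfhydryl oxidase that makes disulfides on its own, was at 123, 117 and 112 CPM in HETStra8 (mice 1, 2, 3) against 111, 105 and 96.9 CPM in KOStra8 mice 1 to 3 (log2 fold change −0.17, edgeR unadjusted p = 0.0539, adjusted p = 0.414). It was named after its values were seen, for the lack of overlap.

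The subunits that pair with P4HB had a median log2 change of 0.016 over 4 genes, from −0.21 for P4ha1, the main catalytic subunit of collagen prolyl 4-hydroxylase, to 0.17 for P4ha3. The 4 lectin chaperones that work with PDIA3 and PDILT had a median of 0.03, from −0.08 for Calr3, the testis calreticulin, to 0.14 for Clgn, which encodes calmegin (edgeR adjusted p = 0.750 and 0.430). The 4 ADAM genes had a median of 0.016, from −0.15 for Adam1a to 0.14 for Adam3, whose protein is a client of PDILT and calmegin (edgeR adjusted p = 0.435 and 0.417).

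**Figure D4:**
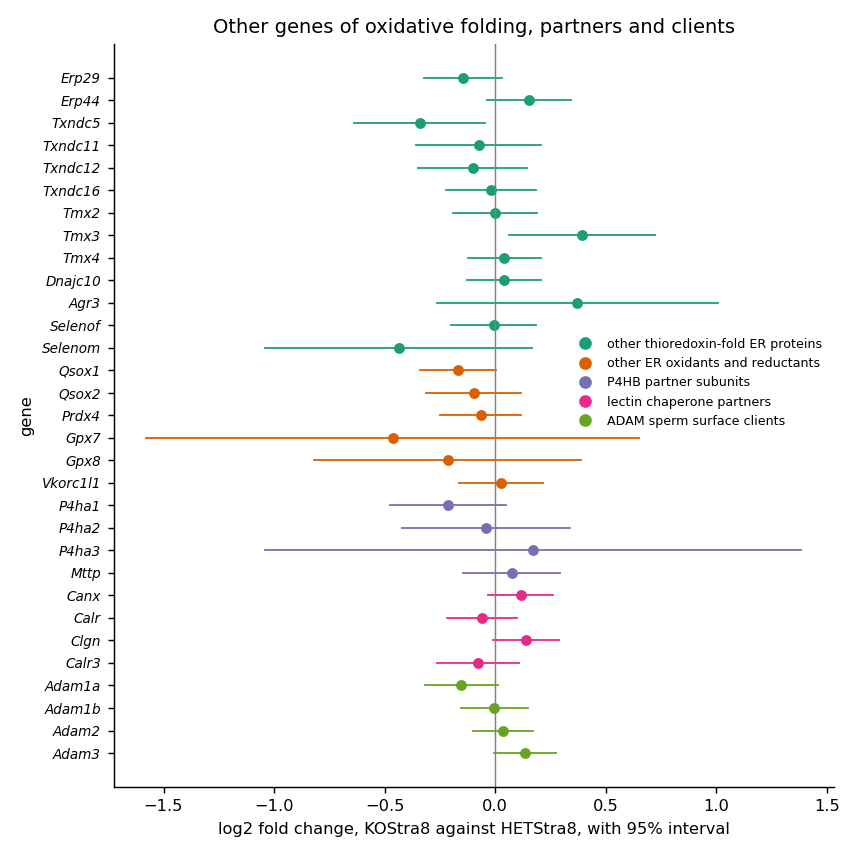
Log2 fold change between KOStra8 and HETStra8 testes (n = 3 each) with its 95% interval for 31 tested genes of the 5 lists, coloured by list. Tmx3 and Txndc5, at 0.39 and −0.34, are the only genes whose interval leaves 0.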

How the data were processed

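Poly(A)+ RNA of 6 testes, 1 library per mouse, was sequenced as paired reads from a directional kit. The deposited files hold whole-number counts per Ensembl gene, which the authors made from aligned reads and left unnormalized. The submitters' processing notes name STAR 2.7.1a, featureCounts 1.6.0 and HTSeq among other tools and the builds mm10 and GRCm38; which of these made the counts, and with which strand setting, is not given in the sources used here. In an unstranded count, reads in exon bases shared by genes on opposite strands could not be told apart. The files hold no row without a gene and no other per-sample column.

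Genes were matched to GENCODE M21, filtered with filterByExpr, scaled by TMM and tested for genotype in all 6 libraries with edgeR 4.0.16 (robust quasi-likelihood, two-sided, R 4.3.3), with Benjamini-Hochberg adjustment over all genes tested. The scripts were tested on simulated data. CPM used TMM-scaled totals. Proteins were translated and aligned with Biopython 1.88. Results were recomputed with other scalings (DESeq2 size factors, library totals), other filters (none, or a minimum of 10 counts per library), other tests (DESeq2 1.42.0, limma-voom from limma 3.58.1), an adjusted p of 0.05 at any fold, offsets for GC content and length (loess, span 0.3), the mouse number as a block, each mouse left out, a prior count of 2 for ratios, and the longest transcript as length.

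The members and lists were chosen with earlier results of these data known. By rule, the text names all members and, for each of the 5 pathway lists, genes with an unadjusted p below 0.05 and the highest and lowest fold change. Marker lists are given by counts and sums, and markers named in them were picked after their values were seen. Nothing says how littermates were spread over the groups, so p-values measure the spread between these mice. Counting error is part of that spread, weighs more for genes with few counts, and was not measured apart. Floors cover counting error only.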

Additional observations from a re-analysis of the deposited data

How the results depend on the processing

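Under all alternatives 0 members were called, also at an adjusted p of 0.05 at any fold. Members at an unadjusted p below 0.05 numbered 1 (P4hb) with no filter and 0 to 2 with each mouse left out (P4hb without HETStra8 mouse 2, Pdilt and P4hb without mouse 3). Such genes of the 5 lists numbered 4 with library totals, with limma-voom and with the replicate block and offsets together, 0 to 6 with each mouse left out, and 1 without HETStra8 mouse 1 and with offsets.

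Offsets for GC content and length turned Pdia5 to 0.045, Tmx1 to −0.10, Ero1l to −0.13, Ero1lb to −0.059, Tmx3 to −0.015 and the difference of the Ero1lb to Ero1l log2 ratio to 0.075. With the replicate block and the offsets Pdia5 was 0.044, Tmx1 −0.097, Ero1l −0.13, Ero1lb −0.058 and Tmx3 −0.0069. With each mouse left out, log2 fold changes ran from −0.017 to 0.23 for Pdilt, from −0.13 to 0.029 for Pdia5, from −0.031 to 0.089 for Pdia6, from −0.26 to −0.08 for P4hb, from 0.04 to 0.11 for Pdia3, from 0.04 to 0.17 for Pdia4, from 0.05 to 0.18 for Tmx1, from 0.0021 to 0.11 for Ero1l, from 0.0049 to 0.07 for Ero1lb and from −1.13 to −1.01 for Sel1l, and the Ero1lb to Ero1l difference from −0.074 to 0.039. Without HETStra8 mouse 1 and with offsets, chosen after seeing the data, Pdilt was −0.021, P4hb 0.014, Pdia5 0.10, Tmx1 −0.026, Ero1l −0.10 and Ero1lb −0.0066. The cause of these changes was not tested. With the longest transcript as length, levels were 131 for Pdia3, 12.9 for Tmx1, 10.6 for Pdia5 and 3.62 CPM per kb for Ero1l.

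The mouse numbers did not pair the samples (correlations of deviations of −0.0635, −0.145 and 0.219), and the replicate block alone changed no call of a member, while genes of all 21465 at an adjusted p below 0.01 went from 4 to 32. Genes called over all, 2, became 39 with no filter, 14 with DESeq2, 5 with the block, 1 to 44 with each mouse left out and 6 without HETStra8 mouse 1 and with offsets. With 3 mice a group, changes of any size inside the printed intervals remain compatible with these data.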
